A study of Mus musculus with 6 samples.

Results

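Most of the genes described here encode proteins of the primary (azurophilic) granule of myeloid cells, or proteins that bind, inhibit or sort its contents. Ms4a3 and Nkg7 encode membrane proteins, the first a marker of granulocyte and monocyte progenitors and the second a protein of cytotoxic granules. The set was chosen by name, as the rows with 1 of 10 gene symbols, Mpo, Elane, Prtn3, Ctsg, Ms4a3, Serpinb1a, Cst7, Nkg7, Srgn and Ap3s1. All 10 were found among the 16135 genes listed in any library, and all 10 passed the filter on low counts that left 12127 genes for testing. Messenger RNA was sequenced from common dendritic cell progenitors, cells of the bone marrow committed to forming dendritic cells, of wildtype C57BL/6 mice aged 6 to 8 weeks. The cells had been flow-sorted by CD115, through which macrophage colony-stimulating factor acts, and by Ly6C, a surface antigen of monocytes and their precursors. The groups were CD115-Ly6C- progenitors, CD115+Ly6C+ progenitors and CD115+Ly6C- progenitors, all untreated as far as the labels say, with 2 libraries each. Whether both libraries of 1 subset derive from different mice or different sorts is not in the labels, so the p-values reflect the spread between these libraries alone, and that spread may be technical.

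Primary granules are the earliest granules that a developing granulocyte fills, at the promyelocyte stage. Their cargo is made in a short window, packed onto the proteoglycan serglycin and sorted on the way by adaptor complexes such as AP-3. Myeloperoxidase makes hypochlorous acid from hydrogen peroxide, and elastase, proteinase 3 and cathepsin G are serine proteases that cathepsin C activates by trimming. Progenitors that can still form several myeloid lineages, before any granule is visible, are known to carry RNA of these genes.

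Levels are given as CPM, library-size-scaled counts from the TMM method, for each library. Differences are log2 fold changes with their standard error (SE), and edgeR adjusted p is the Benjamini-Hochberg value over all 12127 genes, called at 0.05. The totals of expected counts lay between 17961541 and 19450329 per library. The label of the cells was read through 8 marker genes of common dendritic cell progenitors, all of which passed the filter. Flt3, the receptor for the main dendritic cell growth factor, had 1139 and 1063 CPM in CD115-Ly6C-, 372.8 and 342 CPM in CD115+Ly6C+ and 665.9 and 657.3 CPM in CD115+Ly6C-. Csf1r, which encodes CD115, had 213 and 259 CPM in CD115-Ly6C-, 553 and 530.9 CPM in CD115+Ly6C+ and 413.6 and 512.6 CPM in CD115+Ly6C-, so its RNA was present in the subset sorted as lacking the protein. Late neutrophil genes stood apart by subset and by library. The summed CPM (per library total) of 11 such markers, among them Ltf, Camp, Ngp and S100a8, was 347.5 and 163 in CD115-Ly6C-, against 4070 and 3726 in CD115+Ly6C+ libraries and 229.9 and 932.6 in CD115+Ly6C-. All 11 were listed in every library, and replicate 2 of CD115+Ly6C- stood above replicate 1 for each of them. In bulk libraries such as these, fewer cells of a type and less RNA per cell cannot be told apart.

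Before the levels, the sequences just upstream of 4 members are shown, because Elane, Prtn3 and Ctsg fell or rose together in each comparison below while Nkg7 ran the other way. Each is the 250 bases before the annotated start, 5′ to 3′ on the gene's own strand, from RefSeq on GRCm38.p6. Capitals mark GAGGAA, a core of the site bound by the myeloid factor PU.1, and CAACGG, a form of the core bound by MYB; this last motif was added after the windows had been read. The windows lie at chr10:79886062-79886311 on the plus strand for Elane, chr10:79879417-79879666 on the plus strand for Prtn3, chr14:56102575-56102824 on the minus strand for Ctsg and chr7:43436888-43437137 on the plus strand for Nkg7.
Elane: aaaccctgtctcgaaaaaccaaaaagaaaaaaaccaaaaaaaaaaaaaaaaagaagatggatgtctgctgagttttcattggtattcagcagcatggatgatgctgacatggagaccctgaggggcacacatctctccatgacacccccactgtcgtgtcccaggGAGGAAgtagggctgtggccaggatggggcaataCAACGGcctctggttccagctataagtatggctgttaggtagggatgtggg
Prtn3: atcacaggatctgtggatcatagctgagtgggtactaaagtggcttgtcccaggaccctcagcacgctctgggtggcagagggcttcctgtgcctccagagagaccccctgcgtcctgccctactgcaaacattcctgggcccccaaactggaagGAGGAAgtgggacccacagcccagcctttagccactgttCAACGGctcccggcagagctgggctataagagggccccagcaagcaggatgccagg
Ctsg: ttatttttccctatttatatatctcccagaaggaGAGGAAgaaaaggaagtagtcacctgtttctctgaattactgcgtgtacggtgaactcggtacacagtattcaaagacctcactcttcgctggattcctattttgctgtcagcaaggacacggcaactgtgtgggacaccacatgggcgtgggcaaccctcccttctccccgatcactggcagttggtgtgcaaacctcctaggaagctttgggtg
Nkg7: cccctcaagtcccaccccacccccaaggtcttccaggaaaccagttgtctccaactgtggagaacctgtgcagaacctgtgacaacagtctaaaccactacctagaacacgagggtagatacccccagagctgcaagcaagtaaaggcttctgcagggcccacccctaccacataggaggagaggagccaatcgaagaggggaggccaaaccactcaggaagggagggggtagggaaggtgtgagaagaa

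Elane and Prtn3, neighbours on chromosome 10 that lie 3072 bases apart, hold both motifs in the same order and at like distances from the start. GAGGAA begins 85 bases before the start in Elane and 95 bases before it in Prtn3, and CAACGG begins 51 and 56 bases before it. Over the full window of 300 bases, which adds the 50 bases after the start, 8 of the 10 members had 1 or more of 9 windows. GAGGAA, on either strand, was in 5 of these 9 windows (Mpo, Elane, Prtn3, Ctsg and Ms4a3) and in 28.3% of all 32851 windows in the table. CAACGG was in 2 of the 9 and in 5.12% of all, but it was picked after these windows had been read. Its shares therefore cannot be compared. TTNNGNAA, a C/EBP core, was in 3 of the 9 (Ms4a3, Cst7 and 1 of the 2 windows of Srgn) and in 40.7% of all. TGTGGT, a RUNX core, was in 4 of the 9 (Ctsg, Cst7, Nkg7 and 1 of the 2 windows of Srgn) and in 16.8% of all. It is not marked in the sequences above. Ctsg holds it at bases -79 to -74 and Nkg7 at bases -83 to -78, although these genes ran in opposite directions. TAACNG, another MYB core, was in 2 of the 9 and in 23.3% of all. CAACNG was searched as CAACGG only, and CAACTG stands in the printed sequences of Ctsg and Nkg7. In the windows of the members, matches of different motifs shared no base, although a match to TTNNGNAA can contain GAGGAA. A match is a run of letters, and binding was not measured.

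**Figure D1:**
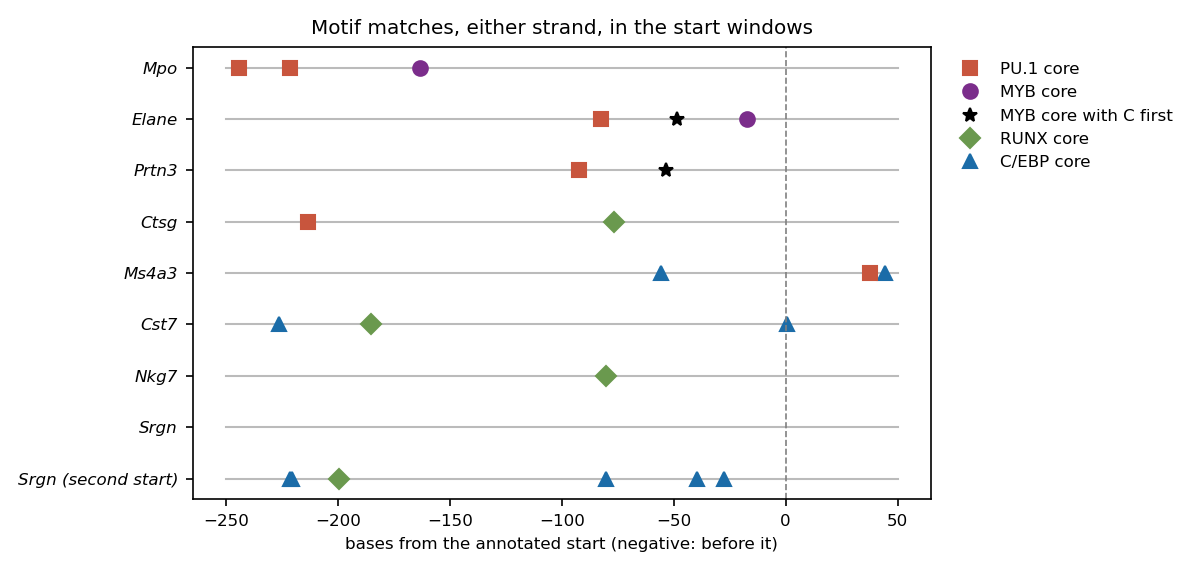
Positions of motif matches on either strand in the windows of 8 members, in bases from the annotated start (dashed line), with Srgn given 2 windows. The PU.1 core GAGGAA lies 85 and 95 bases before the start in Elane and Prtn3, each followed by the CAACGG form of the MYB core (star). Of the motifs searched, Nkg7 holds the RUNX core only, and other CAACNG forms were not searched.

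Across the subsets the 10 genes followed different orders. Elane, Prtn3, Ctsg, Ms4a3 and Ap3s1 were highest in CD115+Ly6C+ and lowest on average in CD115-Ly6C-, and Cst7 had the same order with smaller differences. Mpo was lowest in CD115-Ly6C-, while CD115+Ly6C+ and CD115+Ly6C- overlapped. Nkg7, Srgn and Serpinb1a were highest in CD115-Ly6C-. In CD115-Ly6C- against CD115+Ly6C+, 2 of the 10 members were higher and 7 lower, where 20.1% of all genes tested were higher and 19.2% lower, 39.3% in all. The median log2 fold change was -1.27 over the members and 0.03 over all genes tested. Of the members in CD115-Ly6C- against CD115+Ly6C-, 1 was higher and 5 were lower, where 8.43% of all genes were higher and 6.78% lower, and the median was -0.75 over the members and 0.02 over all genes. Between CD115+Ly6C+ and CD115+Ly6C-, 5 members were higher in CD115+Ly6C+ and 1 was lower, where 5.26% of all genes were higher and 4.34% lower, 9.6% in all, and the median was 0.53 over the members and -0.01 over all genes. With the trend of fold change on transcript length removed, this last member median was 0.28 and that of all genes -0.04. The 3 comparisons share libraries, so they are not independent of each other.

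**Figure D2:**
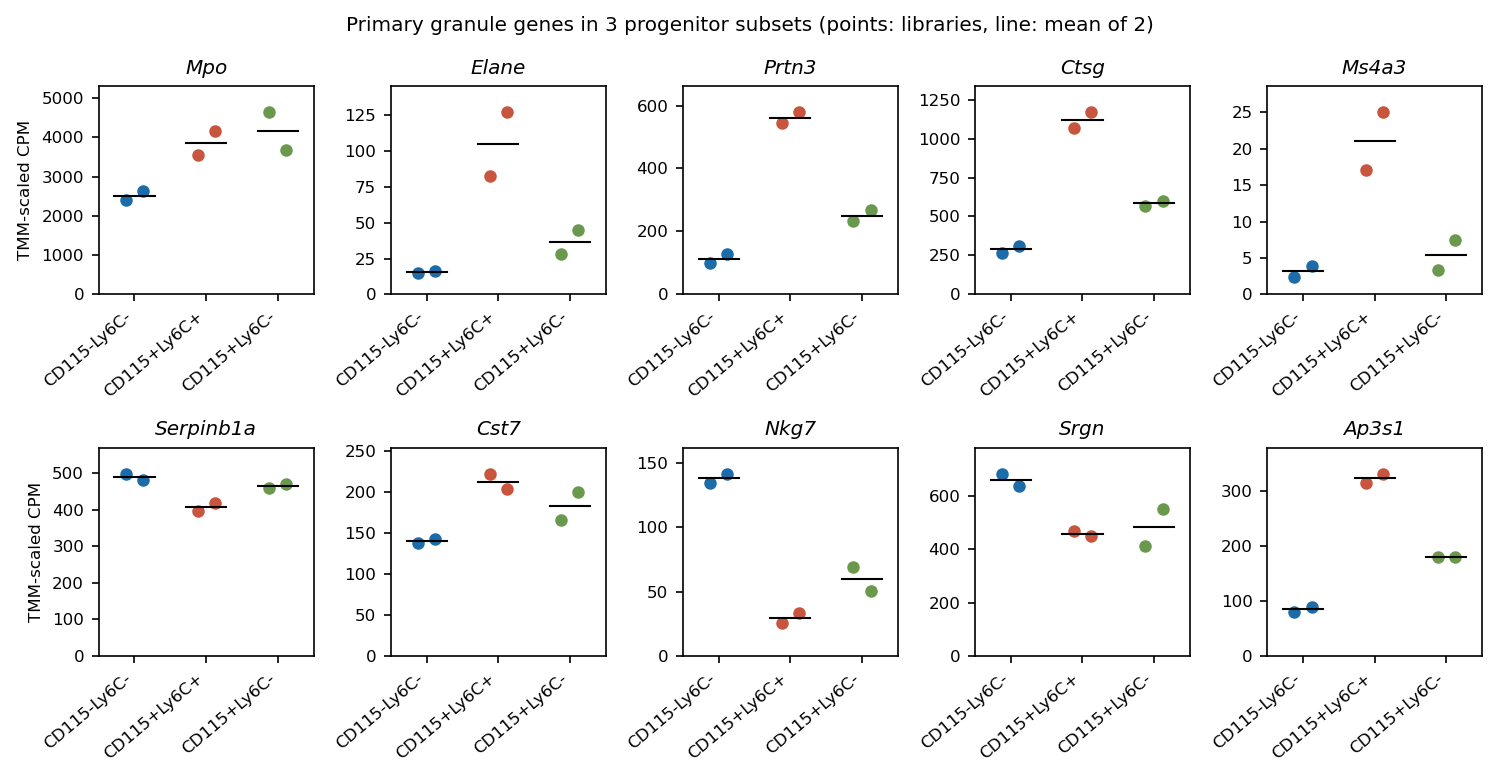
TMM-scaled CPM (linear axis from 0) of each gene in each library, with the mean of 2 libraries as a line, for CD115-Ly6C-, CD115+Ly6C+ and CD115+Ly6C- from left to right. Elane, Prtn3, Ctsg, Ms4a3 and Ap3s1 peak in CD115+Ly6C+, Nkg7 is lowest there, and Serpinb1a stays between 397.4 and 499.1 CPM in all 6 libraries.

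Mpo (Entrez 17523, GRCm38 chr11:87793784-87804412), which encodes myeloperoxidase, had the highest FPKM of the 10 in every library. It had 2406 and 2622 CPM in CD115-Ly6C-, 3559 and 4158 CPM in CD115+Ly6C+ and 4646 and 3682 CPM in CD115+Ly6C-. Per length, its 1094.76 to 1907.26 FPKM ranked it between position 23 and position 60 of all genes listed in a library. Both CD115-Ly6C- libraries lay below the other 4. Mpo was lower in CD115-Ly6C- than in CD115+Ly6C+ (log2 fold change -0.62 with SE 0.14, edgeR adjusted p = 0.00856) and lower than in CD115+Ly6C- (-0.73, SE 0.14, edgeR adjusted p = 0.0123). Against CD115+Ly6C+, edgeR adjusted p was 0.058 without replicate 2 of CD115+Ly6C+, and limma on log2(FPKM + 1) gave 0.0532, with a range of 1.03e-04 to 0.058 over 15 alternatives. Against CD115+Ly6C-, edgeR adjusted p was 0.0706 without replicate 1 of CD115-Ly6C- and 0.0839 without replicate 1 of CD115+Ly6C-, with a range of 1.56e-05 to 0.0839 over 15 alternatives. Between CD115+Ly6C+ and CD115+Ly6C- Mpo was not called (-0.11, SE 0.14, edgeR adjusted p = 0.644), and its libraries overlapped. The sign turned to 0.07 without replicate 1 of CD115+Ly6C-. GENCODE places the antisense gene Gm11505 over exons of Mpo, and the strandedness of the libraries is not stated. Gm11505 is not listed in the sample tables, and its part in the Mpo counts was not tested.

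The 3 serine protease genes kept 1 order of FPKM in all 6 libraries (Ctsg, Prtn3, Elane). In the main fit their log2 fold changes were larger in size than those of Mpo in each comparison. Mpo has a longer transcript than these genes. With the trend of fold change on transcript length removed, CD115-Ly6C- against CD115+Ly6C- gave -0.90 for Mpo (SE 0.15) and -0.98 for Ctsg (SE 0.12). Ctsg and Mpo were thus hardly apart there. Elane (Entrez 50701, chr10:79886312-79888216), which encodes neutrophil elastase, had 14.65 and 16.67 CPM in CD115-Ly6C-, 82.4 and 127.4 CPM in CD115+Ly6C+ and 27.96 and 45.09 CPM in CD115+Ly6C-. Prtn3 (Entrez 19152, chr10:79879667-79883174), which encodes proteinase 3, had 99.5 and 128.4 CPM in CD115-Ly6C-, 544.1 and 579.2 CPM in CD115+Ly6C+ and 232.9 and 267.3 CPM in CD115+Ly6C-. Ctsg (Entrez 13035, chr14:56099885-56102574), which encodes cathepsin G, had 267.9 and 310.1 CPM in CD115-Ly6C-, 1068 and 1170 CPM in CD115+Ly6C+ and 568.3 and 601.5 CPM in CD115+Ly6C-. For each of the 3 genes, no library of 1 subset overlapped those of another. All 3 genes passed the test in all 3 comparisons.

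Elane was lower in CD115-Ly6C- than in CD115+Ly6C+ with a log2 fold change of -2.74 (SE 0.27, edgeR adjusted p = 1.78e-04), a 6.70-fold difference. Prtn3 was lower by -2.30 (SE 0.15, edgeR adjusted p = 2.38e-05) and Ctsg by -1.95 (SE 0.12, edgeR adjusted p = 1.87e-05). Each of these was called under all 15 alternatives. Against CD115+Ly6C-, the log2 fold changes in CD115-Ly6C- were -1.22 for Elane (SE 0.27, edgeR adjusted p = 0.0204), -1.13 for Prtn3 (SE 0.14, edgeR adjusted p = 0.00245) and -1.02 for Ctsg (SE 0.12, edgeR adjusted p = 0.00169). The Elane call was lost without replicate 1 of CD115-Ly6C- (edgeR adjusted p = 0.101) and without replicate 2 of CD115+Ly6C- (edgeR adjusted p = 0.0982, log2 fold change -0.84), within a range of 8.38e-05 to 0.101 over 15 alternatives. In CD115+Ly6C+ against CD115+Ly6C-, Elane was higher by 1.52 (SE 0.26, edgeR adjusted p = 0.0118), Prtn3 by 1.17 (SE 0.14, edgeR adjusted p = 0.00274) and Ctsg by 0.94 (SE 0.12, edgeR adjusted p = 0.00285). Here the Elane call was lost without replicate 2 of CD115+Ly6C+ (edgeR adjusted p = 0.0643) or replicate 1 of CD115+Ly6C- (edgeR adjusted p = 0.0854), within a range of 2.99e-07 to 0.0854. Exons of Prtn3 overlap in GENCODE with Plppr3, on the opposite strand. Plppr3 had 74.54 to 121 CPM over the 6 libraries and was not called in any of the 3 comparisons (edgeR adjusted p = 0.617, 0.777 and 0.489), so its part in the Prtn3 counts was not tested.

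**Figure D3:**
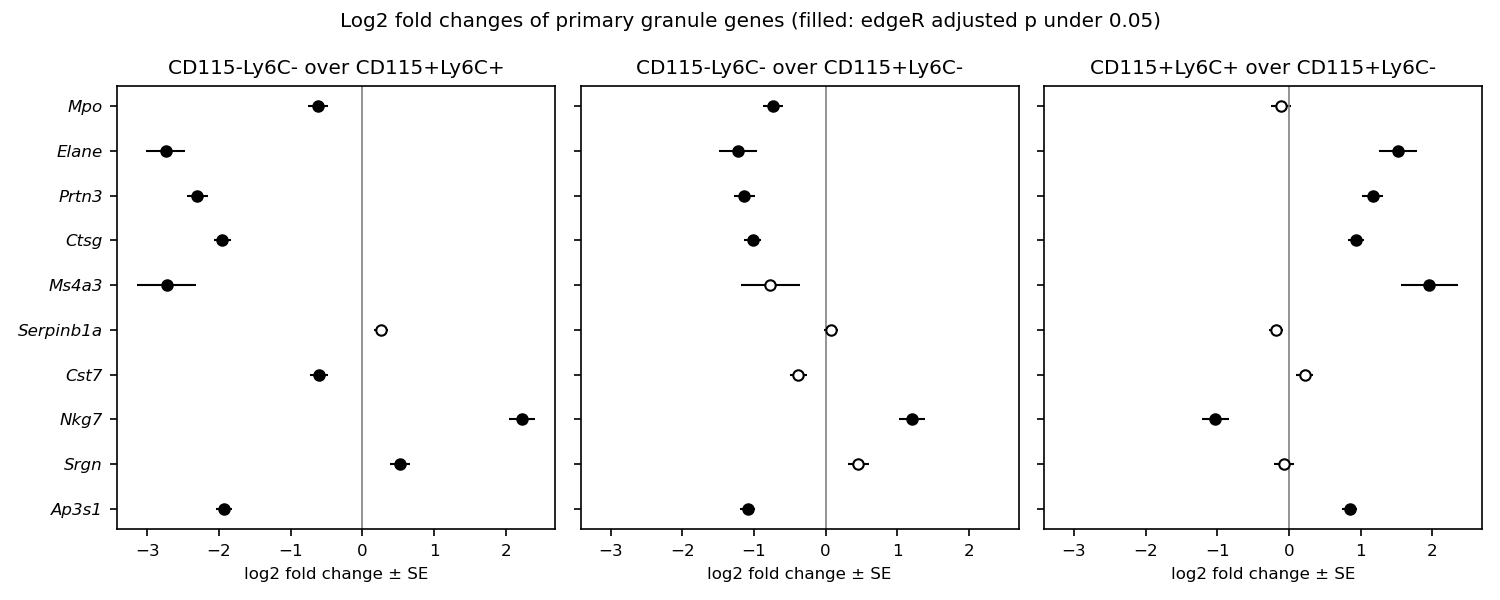
Log2 fold changes ± SE of the 10 genes in the 3 comparisons, each named as the subset on top over the other, with filled points for edgeR adjusted p under 0.05. Elane, Prtn3, Ctsg and Ap3s1 are filled in all 3 panels, Nkg7 is filled in all 3 on the opposite side, and Serpinb1a is open in all 3.

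The proportions between cargo RNAs also differed between subsets, measured as FPKM within a library. FPKM divides by transcript length but does not remove the trend of fold change on length. In CD115-Ly6C- against CD115+Ly6C+ the log2 fold changes were -0.62 for Mpo and -1.95 for Ctsg. With that trend removed they were -0.78 and -1.62, closer together, so the ratios below hold part of the trend. Ctsg stood at 31.7% and 33.7% of the Mpo level in CD115-Ly6C-, at 85.6% and 80.1% in CD115+Ly6C+ and at 35.1% and 46.6% in CD115+Ly6C-. For Prtn3 the share of the Mpo level was 12.2% and 14.5% in CD115-Ly6C-, against 45.3% and 41.2% in CD115+Ly6C+ libraries and 14.9% and 21.5% in CD115+Ly6C-. Elane reached 1.96% and 2.04% in CD115-Ly6C-, against 7.44% and 9.83% in CD115+Ly6C+ libraries and 1.95% and 3.94% in CD115+Ly6C-. For all 3 proteases both CD115+Ly6C+ libraries lay above the other 4, and for Elane the CD115-Ly6C- and CD115+Ly6C- libraries overlapped. With 2 libraries against 2, an exact permutation test of such ratios cannot reach 0.05, so none was run. Among the proteases alone the balance moved less. Ctsg made up 69.2% and 67.1% of their summed FPKM in CD115-Ly6C-, against 61.9% and 61.1% in CD115+Ly6C+ libraries and 67.5% and 64.7% in CD115+Ly6C-, and Elane made up 3.75% to 7.50% over the 6 libraries.

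**Figure D4:**
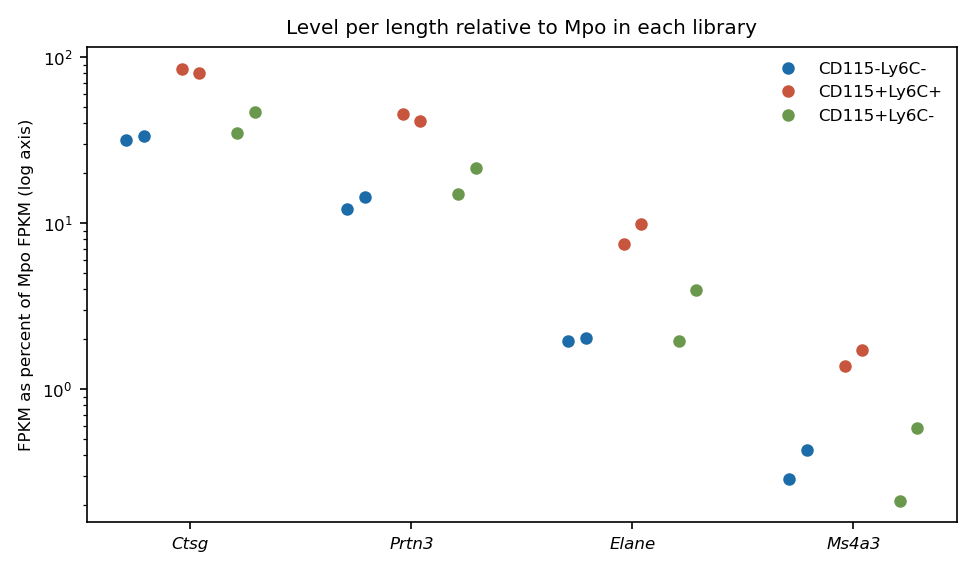
FPKM of Ctsg, Prtn3, Elane and Ms4a3 as a percent of Mpo FPKM in the same library (log axis), 1 point a library, with CD115-Ly6C- left of CD115+Ly6C+ and CD115+Ly6C- for each gene. CD115+Ly6C+ is the highest subset for all 4 genes, at 80.1% and 85.6% for Ctsg.

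Of the 2 inhibitor genes, Serpinb1a was the flattest member. Cst7 had the order of the protease genes on average, with smaller differences that were not all called. Serpinb1a (Entrez 66222, chr13:32842092-32853206) encodes a serpin that blocks elastase, proteinase 3 and cathepsin G. It had 499.1 and 482.4 CPM in CD115-Ly6C-, 397.4 and 419.3 CPM in CD115+Ly6C+ and 459.1 and 469.3 CPM in CD115+Ly6C-. The libraries of the 3 subsets did not overlap, yet no comparison was called (edgeR adjusted p = 0.0608 in CD115-Ly6C- against CD115+Ly6C+, 0.616 in CD115-Ly6C- against CD115+Ly6C-, and 0.258 in CD115+Ly6C+ against CD115+Ly6C-). The log2 fold change of 0.27 in CD115-Ly6C- against CD115+Ly6C+ (SE 0.10) was called under 4 of 15 alternatives, among them DESeq2 (adjusted p = 0.0361) and scaling by library totals (edgeR adjusted p = 0.00565), within a range of 0.00461 to 0.238. Per length, Serpinb1a exceeded Elane in every library, with 309.75 and 291.27 FPKM in CD115-Ly6C-, 215.63 and 221.76 FPKM in CD115+Ly6C+ and 257.34 and 265.74 FPKM in CD115+Ly6C-.

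Cst7 (Entrez 13011, chr2:150570415-150578944) encodes cystatin F, an inhibitor of cysteine cathepsins that include cathepsin C. It had 137.6 and 142.5 CPM in CD115-Ly6C-, 222.3 and 202.9 CPM in CD115+Ly6C+ and 165.8 and 199.6 CPM in CD115+Ly6C-. Cst7 was lower in CD115-Ly6C- than in CD115+Ly6C+ (log2 fold change -0.60 with SE 0.12, edgeR adjusted p = 0.00513). With the trend of fold change on transcript length removed, the difference was -0.26 and the call was lost (edgeR adjusted p = 0.125, within a range of 3.05e-05 to 0.177 over 15 alternatives). Neither CD115-Ly6C- against CD115+Ly6C- (-0.38, SE 0.12, edgeR adjusted p = 0.0647) nor CD115+Ly6C+ against CD115+Ly6C- (0.22, SE 0.12, edgeR adjusted p = 0.272) was called. The first of these was called by DESeq2 (adjusted p = 0.024) and without the filter on low counts (edgeR adjusted p = 0.0392), within a range of 0.024 to 0.293.

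The genes for packing and sorting the cargo split. Srgn (Entrez 19073, chr10:62493833-62527445) encodes serglycin, the proteoglycan core onto which granule proteases are packed. It had 683.1 and 637.9 CPM in CD115-Ly6C-, 466.7 and 448.8 CPM in CD115+Ly6C+ and 410.5 and 551.9 CPM in CD115+Ly6C-. Both CD115-Ly6C- libraries were above the other 4, and the 2 libraries of CD115+Ly6C- lay on either side of those of CD115+Ly6C+. Srgn was higher in CD115-Ly6C- compared with CD115+Ly6C+ (log2 fold change 0.53 with SE 0.14, edgeR adjusted p = 0.0189), but the call was lost when replicate 1 of CD115-Ly6C- (edgeR adjusted p = 0.0805), replicate 1 of CD115+Ly6C+ (0.0589) or replicate 2 of CD115+Ly6C+ (0.0919) was left out, within a range of 0.00223 to 0.0919. Against CD115+Ly6C- the difference of 0.46 (SE 0.14) was not called (edgeR adjusted p = 0.0636). It was called under 6 of 15 alternatives, among them leaving out replicate 2 of CD115+Ly6C- (0.68, edgeR adjusted p = 0.0308), within a range of 0.0164 to 0.295. CD115+Ly6C+ against CD115+Ly6C- gave -0.07 (SE 0.14, edgeR adjusted p = 0.779), which turned to 0.15 without replicate 2 of CD115+Ly6C-.

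Ap3s1 (Entrez 11777, chr18:46741694-46790826) encodes the sigma 1 subunit of AP-3, the adaptor complex that sorts membrane proteins to lysosome-related organelles. It had 80.12 and 89.16 CPM in CD115-Ly6C-, 313.9 and 331.8 CPM in CD115+Ly6C+ and 179.7 and 179.5 CPM in CD115+Ly6C-. The libraries of 1 subset were close to each other and apart from the rest. Ap3s1 was lower in CD115-Ly6C- than in CD115+Ly6C+ (log2 fold change -1.93 with SE 0.11, edgeR adjusted p = 1.37e-05) and lower than in CD115+Ly6C- (-1.09, SE 0.11, edgeR adjusted p = 8.66e-04). It was higher in CD115+Ly6C+ compared with CD115+Ly6C- (0.85, SE 0.10, edgeR adjusted p = 0.0029), and all 3 calls held under all 15 alternatives. Its expected counts were not whole in 5 of 6 libraries, so some of its reads were shared with another entry by estimation, and its level is uncertain to that extent. The other subunits of AP-3 are named for their place in the complex, after their values were seen. Ap3b1, Ap3d1, Ap3m1 and Ap3s2 were not called in any comparison, with log2 fold changes from -0.28 (Ap3b1 in CD115-Ly6C- against CD115+Ly6C-) to 0.19 (Ap3d1 in CD115-Ly6C- against CD115+Ly6C+). Ap3m2, at 10.62 and 15.52 CPM in CD115-Ly6C- and 3.57 and 5.75 CPM in CD115+Ly6C+, was higher in CD115-Ly6C- (1.49, edgeR adjusted p = 0.00595). In CD115+Ly6C+ against CD115+Ly6C- its log2 fold change of -0.94, opposite in sign to that of Ap3s1, was not called (edgeR adjusted p = 0.0896).

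The 2 membrane proteins among the 10 ran in opposite directions. Ms4a3 (Entrez 170813, chr19:11629499-11640851) encodes a protein that spans the membrane several times and marks granulocyte and monocyte progenitors. It had the lowest FPKM of the 10 in every library, and had 2.42 and 3.93 CPM in CD115-Ly6C-, 17.1 and 25 CPM in CD115+Ly6C+ and 3.41 and 7.43 CPM in CD115+Ly6C-, from 48 to 418 expected counts. CD115+Ly6C+ lay above the other 4 libraries, which overlapped. Ms4a3 was lower in CD115-Ly6C- than in CD115+Ly6C+ (log2 fold change -2.73 with SE 0.41, edgeR adjusted p = 0.00131). It was higher in CD115+Ly6C+ compared with CD115+Ly6C- (1.96, SE 0.39, edgeR adjusted p = 0.0211), a call lost without replicate 2 of CD115+Ly6C+ (edgeR adjusted p = 0.109) and without replicate 1 of CD115+Ly6C- (edgeR adjusted p = 0.118, within a range of 7.39e-05 to 0.118). CD115-Ly6C- against CD115+Ly6C- was not called (-0.77, SE 0.41, edgeR adjusted p = 0.238).

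Nkg7 (Entrez 72310, chr7:43437138-43438246) encodes a membrane protein of the cytotoxic granules of natural killer and T cells. It had 134.6 and 141.8 CPM in CD115-Ly6C-, 25.37 and 33.65 CPM in CD115+Ly6C+ and 69.35 and 50.77 CPM in CD115+Ly6C-, with no overlap between subsets. This was the reverse of the order of the protease genes. Nkg7 was higher in CD115-Ly6C- compared with CD115+Ly6C+ (log2 fold change 2.23 with SE 0.19, edgeR adjusted p = 7.98e-05) and higher than in CD115+Ly6C- (1.20, SE 0.18, edgeR adjusted p = 0.0042), under all 15 alternatives in both cases. It was lower in CD115+Ly6C+ than in CD115+Ly6C- (-1.03, SE 0.18, edgeR adjusted p = 0.0143). This call was lost without replicate 1 of CD115+Ly6C+ (edgeR adjusted p = 0.0682) and without replicate 1 of CD115+Ly6C- (edgeR adjusted p = 0.0998), within a range of 2.06e-05 to 0.0998.

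Markers of natural killer and cytotoxic lymphocytes were low, and those called in CD115-Ly6C- against another subset were higher there, as Nkg7 was. Of 15 such genes, 6 passed the filter, and 5 of these were higher in CD115-Ly6C- compared with CD115+Ly6C+, where 20.1% of all genes were. Gzma, the remaining tested marker, leaned the other way (log2 fold change -2.24, edgeR adjusted p = 0.0691). Against CD115+Ly6C-, 3 were higher (8.43% of all genes), and 1 was lower in CD115+Ly6C+ than in CD115+Ly6C- (4.34% of all genes). The summed CPM of the list, per library total, was 70.8 and 56.6 in CD115-Ly6C-, against 30.1 and 22.5 in CD115+Ly6C+ libraries and 22.2 and 27.2 in CD115+Ly6C-. The sums of CD115+Ly6C+ and CD115+Ly6C- thus overlapped, while the Nkg7 libraries of these subsets did not. The defining genes were split between some with counts and some at or near 0. In CD115-Ly6C-, Klrd1 had 36.34 and 31.6 CPM, Il2rb had 9.41 and 8.46 CPM, Klrb1c had 2.67 and 2.64 CPM and Prf1 had 1.16 and 1.29 CPM. Klrd1 was also present in CD115+Ly6C+, with 25.14 and 20.9 CPM, and in CD115+Ly6C-, with 18.2 and 22.81 CPM. Gzmb and Gzmk were listed in no library, Cd3e and Eomes had no count in CD115-Ly6C-, and Ncr1 had 0.22 and 0 CPM there. Ctsw, which encodes a lymphocyte cathepsin, had 14.39 and 8.21 CPM in CD115-Ly6C-, 0.39 and 0.30 CPM in CD115+Ly6C+ and 1.26 and 1.22 CPM in CD115+Ly6C-. The part of such cells in the Nkg7 difference was not tested.

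Late neutrophil genes moved with the proteases in the comparisons with CD115+Ly6C+. In CD115-Ly6C- against CD115+Ly6C- the proteases were called but the markers mostly were not. Their median log2 fold change there was -1.30, and Cxcr2 leaned the other way (0.36). All 11 markers were lower in CD115-Ly6C- than in CD115+Ly6C+, 10 of 11 were higher in CD115+Ly6C+ compared with CD115+Ly6C-, while 1 of 11 was lower in CD115-Ly6C- than in CD115+Ly6C-. Of all genes tested, 19.2%, 5.26% and 6.78% had these calls, in the same order. Within subsets the median of the markers and that of the members differed, although single members varied. The member median also takes in Nkg7, Srgn and Serpinb1a, which did not have the order of the proteases, so it does not speak for the proteases alone. From replicate 1 to replicate 2 in the CD115-Ly6C- pair, the median log2 ratio was -1.05 over the 11 markers and 0.14 over the 10 members. For the CD115+Ly6C+ pair it was -0.085 over the markers and 0.11 over the members, and for the CD115+Ly6C- pair 2.03 over the markers and 0.14 over the members. In that last pair Ms4a3 (1.12) and Elane (0.69) were higher in replicate 2, as the markers were, and above the 90th percentile of all genes (0.566). Ctsg differed by 0.08 and Ap3s1 by 0.00, and Mpo was lower (-0.34). Without replicate 2 of CD115+Ly6C-, the log2 fold change in CD115+Ly6C+ against CD115+Ly6C- was 1.90 for Elane, 1.26 for Prtn3, 0.97 for Ctsg, 2.62 for Ms4a3 and 0.84 for Ap3s1, all called (edgeR adjusted p between 0.0198 and 0.0282). The part of late neutrophils in these differences was not tested.

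**Figure D5:**
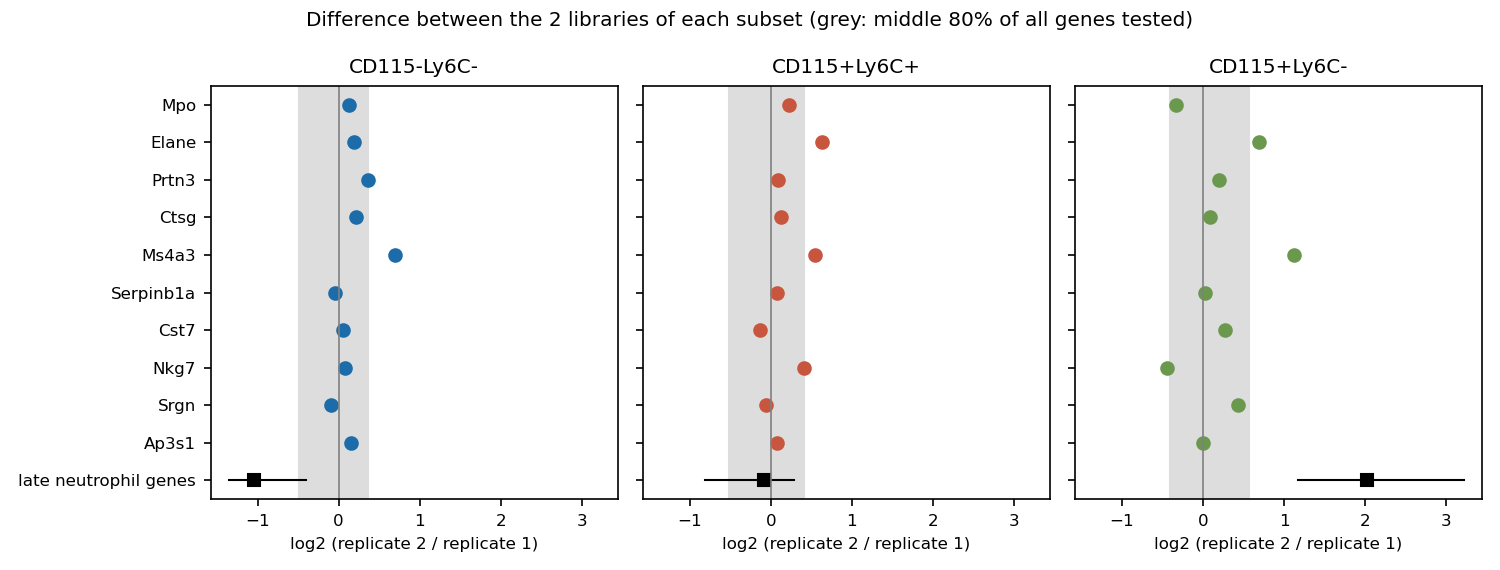
Log2 ratio of replicate 2 to replicate 1 in CPM within each subset, for the 10 genes (points) and for 11 late neutrophil genes (square at the median, line from lowest to highest), with the middle 80% of all genes tested in grey. The late neutrophil genes have medians of -1.05, -0.085 and 2.03 in CD115-Ly6C-, CD115+Ly6C+ and CD115+Ly6C-, while the members have medians of 0.14, 0.11 and 0.14. Single members vary, with Ms4a3 at 1.12, Elane at 0.69 and Mpo at -0.34 in CD115+Ly6C-.

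Transcript length also varied with the fold changes over all genes, and 8 of the 10 members lie in the shortest 25% of genes tested, up to 1773 nucleotides (Mpo and Serpinb1a are longer). In CD115-Ly6C- against CD115+Ly6C+ the median log2 fold change was -0.34 in these shortest genes and 0.31 in the longest 25%, and in CD115+Ly6C+ against CD115+Ly6C- it was 0.22 and -0.20. Nkg7, the shortest member, moved against this trend. With the trend removed, the differences in CD115-Ly6C- against CD115+Ly6C+ were -2.36 for Elane, -1.95 for Prtn3, -1.62 for Ctsg, -2.39 for Ms4a3, -1.83 for Ap3s1 and 2.68 for Nkg7, and all 6 remained called (edgeR adjusted p between 1.21e-05 and 0.00173).

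Other granule and lysosome genes did not all follow the same direction. In the comparisons with CD115+Ly6C+, more of them were called in the direction of Elane, Prtn3 and Ctsg than against it. Of 24 further cargo genes, 23 were tested. In CD115-Ly6C- against CD115+Ly6C+, 4 were higher and 13 lower (median log2 fold change -0.66), in CD115-Ly6C- against CD115+Ly6C- 4 were higher and 5 lower (-0.32), and in CD115+Ly6C+ against CD115+Ly6C- 8 were higher and 1 lower (0.41). The shares over all genes, in the same order, were 20.1% higher and 19.2% lower, 8.43% and 6.78%, and 5.26% and 4.34%. Lyz2, which encodes lysozyme, had 246.6 and 224 CPM in CD115-Ly6C-, 1180 and 1272 CPM in CD115+Ly6C+ and 202.2 and 383.1 CPM in CD115+Ly6C-. Its near-identical neighbour Lyz1 was at 9.76 and 8.36, 49.7 and 58, and 8.55 and 15.3 CPM in the same order of subsets, and reads may have been split between the pair. Ctsz, a lysosomal cathepsin, was lower in CD115-Ly6C- than in CD115+Ly6C+ (-1.33, edgeR adjusted p = 8.26e-05). Prss57, a further serine protease of primary granules, singled out after its values were seen, went against the other proteases. It had 91.5 and 98.4 CPM in CD115-Ly6C-, 40.1 and 44.7 CPM in CD115+Ly6C+ and 63.3 and 72.7 CPM in CD115+Ly6C-, and was higher in CD115-Ly6C- compared with CD115+Ly6C+ (1.16, edgeR adjusted p = 3e-04). Bpi, whose product binds bacterial lipopolysaccharide, had no count in 5 of the 6 libraries.

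Among 31 genes of AP-3 and granule trafficking, 7 were higher and 5 lower in CD115-Ly6C- against CD115+Ly6C+ (median log2 fold change 0.03, as over all genes). Of all genes, 20.1% were higher and 19.2% lower in this comparison. Against CD115+Ly6C-, 3 were higher and 3 lower, where 15.2% of all genes were called. In CD115+Ly6C+ against CD115+Ly6C- 1 was higher and 1 lower, where 9.6% were called. The counts of the list lay near these shares. Rab32, a small GTPase of lysosome-related organelles, had 93.1 and 101.7 CPM in CD115-Ly6C- and 184.7 and 205.3 CPM in CD115+Ly6C+ (edgeR adjusted p = 3e-04), and Bloc1s2, a subunit of the BLOC-1 complex, was lower as well (-1.09, edgeR adjusted p = 6.29e-04). Dtnbp1, another BLOC-1 subunit, was higher (1.15, edgeR adjusted p = 5.55e-04), as was Unc13d, which primes granules for release (1.25, edgeR adjusted p = 6.24e-04).

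Of 16 further protease inhibitors, 9 were tested. In CD115-Ly6C- against CD115+Ly6C+, 3 were higher and 5 lower, against CD115+Ly6C- 2 were higher and 2 lower, and in CD115+Ly6C+ against CD115+Ly6C- 5 were higher. Of all genes, 20.1% were higher and 19.2% lower in the first comparison, 8.43% and 6.78% in the second, and 5.26% higher in the third. Cst3, which encodes the secreted inhibitor cystatin C, had 548.9 and 646.8 CPM in CD115-Ly6C-, 1771 and 1896 CPM in CD115+Ly6C+ and 910.4 and 971.7 CPM in CD115+Ly6C-. Slpi, which encodes a secreted inhibitor of elastase and cathepsin G, had 78.9 and 87.6 CPM in CD115-Ly6C-, 254.6 and 272.4 CPM in CD115+Ly6C+ and 163.7 and 165.1 CPM in CD115+Ly6C-. Both thus had the order of the protease genes, and both passed the test in all 3 comparisons. Serpinb10 was lower in CD115-Ly6C- than in CD115+Ly6C+ (-4.04, edgeR adjusted p = 0.00175, with at most 0.352 CPM in CD115-Ly6C-), and Serpina3g was higher (1.53, edgeR adjusted p = 0.00136).

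The Ms4a family gave calls in 1 direction. Of 14 further members, 6 were tested, 5 were lower in CD115-Ly6C- than in CD115+Ly6C+, 4 were lower than in CD115+Ly6C-, and 4 were higher in CD115+Ly6C+ compared with CD115+Ly6C-. Over all genes the shares for these calls were 19.2%, 6.78% and 5.26%. Ms4a6c had 175.2 and 228.8 CPM in CD115-Ly6C-, 696.8 and 715.8 CPM in CD115+Ly6C+ and 504.6 and 467.5 CPM in CD115+Ly6C-. Ms4a4c (-2.47, edgeR adjusted p = 1.07e-04), Ms4a6b (-2.04, edgeR adjusted p = 1.31e-04) and Ms4a4b (-1.38, edgeR adjusted p = 3.62e-04) were also lower in CD115-Ly6C- than in CD115+Ly6C+. These family members resemble each other in sequence, so the splitting of reads between them is uncertain.

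Of 18 genes that build the sugar chains of serglycin, 3 were higher and 2 lower in CD115-Ly6C- against CD115+Ly6C+, where 39.3% of all genes were called. Against CD115+Ly6C-, 1 was higher, where 8.43% of all genes were. In CD115+Ly6C+ against CD115+Ly6C- 1 was lower, where 4.34% of all genes were. Chst15, which adds a further sulfate to chondroitin sulfate, had 86.9 and 86.5 CPM in CD115-Ly6C-, 24.5 and 14.2 CPM in CD115+Ly6C+ and 37.6 and 49.2 CPM in CD115+Ly6C-, and passed the test in all 3 comparisons. Ext2 (0.44, edgeR adjusted p = 0.0155) and Ndst1 (1.10, edgeR adjusted p = 0.0241), both of heparan sulfate synthesis, were higher in CD115-Ly6C- compared with CD115+Ly6C+, and Chst12, a chondroitin sulfotransferase, was lower (-0.59, edgeR adjusted p = 0.00565).

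Of 10 transcription factors known to act on primary granule genes, 9 were tested. In CD115-Ly6C- against CD115+Ly6C+, 1 was higher and 5 lower, against CD115+Ly6C- 1 was lower, and in CD115+Ly6C+ against CD115+Ly6C- 5 were higher. The matching shares of all genes were 20.1% higher and 19.2% lower, 6.78% lower, and 5.26% higher. Spi1, which encodes PU.1, had 198.7 and 238.2 CPM in CD115-Ly6C-, 407.6 and 412.5 CPM in CD115+Ly6C+ and 283.1 and 308.9 CPM in CD115+Ly6C-. Cebpa, which encodes C/EBP alpha, had 8.96 and 6.92 CPM in CD115-Ly6C-, 24.2 and 21 CPM in CD115+Ly6C+ and 7.97 and 9.66 CPM in CD115+Ly6C-. Cebpd (-1.81, edgeR adjusted p = 5.66e-04) and Cbfb, the partner of the RUNX factors (-0.94, edgeR adjusted p = 0.00103), were also lower in CD115-Ly6C- than in CD115+Ly6C+. Of 18 genes of later granules and mature neutrophils, 2 were higher and 14 lower in CD115-Ly6C- against CD115+Ly6C+, 4 were higher and 1 lower against CD115+Ly6C-, and 14 were higher in CD115+Ly6C+ against CD115+Ly6C-. Over all genes the shares, in the same order, were 20.1% and 19.2%, 8.43% and 6.78%, and 5.26%. Mmp8, a collagenase, had 6.24 and 4.73 CPM in CD115-Ly6C-, 142.4 and 150.1 CPM in CD115+Ly6C+ and 10.1 and 32.5 CPM in CD115+Ly6C-. Cybb, an oxidase subunit (-1.68, edgeR adjusted p = 1.22e-04), Camp (-4.12, edgeR adjusted p = 7.99e-04) and Retnlg (-5.16, edgeR adjusted p = 7.28e-04) were lower in CD115-Ly6C- than in CD115+Ly6C+ as well.

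Likeness of pattern was measured as the Euclidean distance between log2 CPM values centred on each gene's mean over the 6 libraries, among 8240 genes with a mean of at least 10 CPM. It is a description over 6 libraries in 3 groups. Nearest to Mpo were Fen1 (distance 0.08), Med8 (0.09), Nedd1 (0.10) and Fignl1 (0.10), and Fen1, a DNA flap endonuclease, had 328.9 and 368.1 CPM in CD115-Ly6C-, 478.6 and 543 CPM in CD115+Ly6C+ and 631.3 and 506.8 CPM in CD115+Ly6C-. Nearest to Elane were Slfn2 (0.34), Fcgrt (0.38), Ccl6 (0.46) and Tfec (0.60). Nearest to Nkg7 were Il2rg (0.24), Cyp2j9 (0.28), Cd81 (0.36) and Tespa1 (0.37), and Il2rg, the common gamma chain of cytokine receptors, had 97.4 and 112.7 CPM in CD115-Ly6C-, 18.7 and 26.5 CPM in CD115+Ly6C+ and 45.9 and 34.3 CPM in CD115+Ly6C-. Among the members themselves, Ctsg and Ap3s1 lay closest (0.12), followed by Prtn3 and Ctsg (0.39) and by Prtn3 and Ap3s1 (0.46). Mpo lay closer to Cst7 (0.63) than to Ctsg (1.44) or Elane (2.33).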

How the data were processed

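The 6 RNA libraries were grouped by the sorted subset that the labels give, 2 each. Per the submitters' processing notes, Bowtie2 was the aligner, mm10 the build and RSEM the quantifier, with versions not given in the sources used here. The deposited sample tables hold, per the file headers, RSEM expected counts and FPKM. The expected counts are estimates, and 12.6% of those above 0 were not whole (tolerance 1e-06). Where the authors' table of a sample omits a gene, its count was taken as 0. Submitter-numbered entries without a gene identifier, 778 in number, held 3.56% to 4.18% of the counts of a library and stayed in the totals. Of 15357 Entrez identifiers, 15332 matched RefSeq on GRCm38.p6, which gave the coordinates. Strand was not stated for the kit, and no label mentions molecular identifiers.

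Rounded expected counts entered edgeR 4.0.16 (R 4.3.3), with its quasi-likelihood F test (filterByExpr by subset, minimum count 10, minimum total 15; TMM; all 6 libraries in 1 fit). The SE is the size of the log2 fold change over the square root of F. The fit was also run on counts simulated from its own estimate of the spread, which cannot show whether the calls in these libraries are right. Alternatives were library totals, DESeq2 1.42.0, no filter, limma 3.58.1 on log2(FPKM + 1) and log2(FPKM + 0.1), a fit of the 4 libraries compared, removal of the length trend, the replicate block and each library left out. The libraries of a subset differed beyond counting error (chi-square per degree of freedom 19.3 to 21.4), so none was merged. Members, lists and tests were chosen with earlier results of these data known. All 10 members are named, and from each other list up to 4 genes with the smallest adjusted p. For likeness, the 4 nearest genes are named. The single-gene result of 1 list gene is not reported here.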

Additional observations from a re-analysis of the deposited data

How the results depend on the processing

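Of 450 single-gene values under alternatives, 415 kept their direction and their side of the threshold, 12 gained a call, 17 lost one and 6 turned direction. Those that turned were not called: Serpinb1a in CD115-Ly6C- against CD115+Ly6C- (-0.0378 with the length trend removed and -0.0379 with the replicate block as well), Cst7 in CD115+Ly6C+ against CD115+Ly6C- (-0.083 and -0.0819), Mpo in the same comparison (from -0.273 to 0.0661 with 1 library left out) and Srgn (from -0.271 to 0.152). In CD115-Ly6C- against CD115+Ly6C+, where the main counts over all genes were 2435 higher and 2333 lower, library totals gave 3504 higher and 1518 lower, and removal of the length trend gave 1551 higher and 2501 lower, or 1466 higher with the replicate block. Library totals moved the median of all genes to 0.22, against 0.03 with TMM. For CD115-Ly6C- against CD115+Ly6C- (1022 higher and 822 lower), 479 were lower with library totals, 546 and 530 with limma, 1658 with the length trend removed and 1388 with the block too, and the members higher were 2 with library totals, DESeq2, no filter and both limma fits. In CD115+Ly6C+ against CD115+Ly6C- (638 higher and 526 lower), 1024 were higher with DESeq2, 986 higher and 824 lower without the filter, 361 and 325 with the length trend removed, and 388 and 291 with the block too. The causes were not tested. With 1 library left out, whose remaining partner is assumed to vary like the other libraries, the counts over all genes ranged from 1483 to 2369 higher and 1486 to 2263 lower, from 291 to 996 higher and 165 to 755 lower, and from 105 to 648 higher and 115 to 491 lower in the 3 comparisons in that order. The members ranged from 1 to 2 higher and 6 to 7 lower, from 1 to 2 higher and 3 to 5 lower, and from 3 to 5 higher and 0 to 1 lower. The labels do not say whether the replicate numbers pair libraries, and deviations of same-numbered libraries correlated at 0.152, -0.01 and -0.004, so no pairing was assumed. Elane, Prtn3, Ctsg and Ms4a3 were higher in replicate 2 of all 3 subsets, and in CD115-Ly6C- against CD115+Ly6C+ the replicate block gave an SE of 0.165 for Elane, against 0.274 without it, and of 0.257 for Ms4a3, against 0.412. With the replicate block alone, the members called were 2 higher and 7 lower, 1 higher and 5 lower, and 5 higher and 1 lower. Depth limits Ms4a3 most, with 48 counts in its lowest library.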

Other observations

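Prg2 and Epx, 2 eosinophil granule genes, were higher in replicate 2 of every subset. Prg2, which encodes the major basic protein of eosinophil granules, had 0.81 and 5.12 CPM in CD115-Ly6C-, 1.45 and 30 CPM in CD115+Ly6C+ and 0.05 and 19.8 CPM in CD115+Ly6C-. Epx, which encodes eosinophil peroxidase, a relative of myeloperoxidase, had 0 and 1.84 CPM, 0.06 and 4.19 CPM, and 0 and 2.55 CPM in the same order. Other eosinophil markers did not all share this. Prg3 and Ear2 were lower in replicate 2 of CD115-Ly6C-, Ear2 was lower in replicate 2 of CD115+Ly6C+, and Siglecf, at 10.1 and 9.65 CPM in CD115-Ly6C-, 4.46 and 5.03 CPM in CD115+Ly6C+ and 5.61 and 5.3 CPM in CD115+Ly6C-, was lower in replicate 2 of CD115-Ly6C- and of CD115+Ly6C-. Prg2 and Epx were singled out after their values were seen. Of 7 eosinophil markers tested, 1 was higher and 1 lower in CD115-Ly6C- against CD115+Ly6C+, and 1 was higher in CD115-Ly6C- against CD115+Ly6C- (edgeR). The shares over all genes were 20.1% higher and 19.2% lower in the first comparison and 8.43% higher in the second. Cpa3, a mast cell and basophil granule protease, had 26 and 32.1 CPM in CD115-Ly6C-, 4.18 and 3.35 CPM in CD115+Ly6C+ and 1.89 and 1.96 CPM in CD115+Ly6C-, and was higher in CD115-Ly6C- than in both other subsets (edgeR adjusted p = 6.04e-05 and 1.73e-04). The 6 tested genes of basophils and mast cells gave 2 calls above and 2 below in CD115-Ly6C- against CD115+Ly6C+, where 39.3% of all genes were called.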
